A study of Mus musculus with 14 samples.

Results

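The genes described here are the 10 that encode the enzymes of serine synthesis and of folate-bound one-carbon metabolism: Phgdh, Psat1 and Psph (serine synthesis), Shmt2, Mthfd2, Mthfd2l, Mthfd1l and Aldh1l2 (mitochondrial folate enzymes), and Shmt1 and Mthfd1 (cytosolic folate enzymes). They were chosen by name for their place in the pathway, with earlier results of these data known. All 10 were found among the 35275 genes of the deposited table. In brown adipose tissue lacking Lrpprc in Ucp1-expressing cells, Mthfd2 was the member with the largest change, 18.1 times the control mean at 22 °C and 10.9 times at 30 °C. Its isoenzyme Mthfd2l and the cytosolic enzymes Shmt1 and Mthfd1 did not pass the test at either temperature in the main fit. Each of them passed under some other setting, given below. Phgdh and Shmt2 passed the test at 22 °C, and Psat1 and Aldh1l2 passed it at 30 °C. Knockouts also lay wholly above controls for Phgdh at 30 °C and for Aldh1l2 at 22 °C. Aldh1l2 entered the test only through knockouts. No member passed the test of a difference between the knockout effects at these temperatures.

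Serine is made from the glycolytic intermediate 3-phosphoglycerate by phosphoglycerate dehydrogenase, phosphoserine aminotransferase and phosphoserine phosphatase, the products of Phgdh, Psat1 and Psph. Serine hydroxymethyltransferases then pass a carbon from serine to tetrahydrofolate and release glycine, and further enzymes oxidise that carbon to formate or carbon dioxide. The folate steps run in parallel in mitochondria and in the cytosol through separate isoenzymes, and they supply carbon for purines, thymidylate, methionine and the formyl group of the mitochondrial initiator tRNA. MTHFD2 and MTHFD2L are both mitochondrial dehydrogenase and cyclohydrolase enzymes. MTHFD2 is best known from embryonic and dividing cells and as a target of the transcription factor ATF4.

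The series measured RNA by sequencing in brown adipose tissue of C57BL/6 mice aged 8 weeks, with 1 library per animal and 14 animals in all. Every animal carried floxed Lrpprc alleles (LrpprcFF), and the knockouts (LrpprcFF Ucp1-Cre) also carried a Cre recombinase driven by the Ucp1 promoter, which is active in brown adipocytes. There were 4 controls and 4 knockouts at 22 °C, and 3 controls and 3 knockouts at thermoneutrality (30 °C). Brown adipocytes are given as the cell type, but RNA came from homogenized tissue and no isolation of cells is described, so the libraries also hold RNA of other cells.

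The letters of 3 promoters are shown because Mthfd2 and Mthfd2l, with the same enzymatic role in the same compartment, differed in the data, and because Phgdh had the largest temperature difference of all members. They are the 250 bases before the annotated gene start, 5′ to 3′ on the gene's strand, from RefSeq (GRCm38.p6), where 9 of the 10 members had an entry; Aldh1l2 had none. Capitals mark CCAAT on either strand, which reads ATTGG on the other strand. Mthfd2 lies at chr6:83317605-83317854 on the minus strand, Mthfd2l at chr5:90930946-90931195 on the plus strand and Phgdh at chr3:98339970-98340219 on the minus strand.
Mthfd2: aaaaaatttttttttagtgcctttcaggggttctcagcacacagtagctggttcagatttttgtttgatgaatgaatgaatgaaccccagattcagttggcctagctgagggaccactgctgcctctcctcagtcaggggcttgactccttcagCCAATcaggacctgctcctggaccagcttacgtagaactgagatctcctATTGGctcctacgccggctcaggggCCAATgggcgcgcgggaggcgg
Mthfd2l: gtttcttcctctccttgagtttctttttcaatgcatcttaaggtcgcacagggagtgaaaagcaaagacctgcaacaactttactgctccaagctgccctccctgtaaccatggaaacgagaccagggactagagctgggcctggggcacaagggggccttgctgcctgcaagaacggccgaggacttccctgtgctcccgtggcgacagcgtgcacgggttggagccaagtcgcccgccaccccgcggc
Phgdh: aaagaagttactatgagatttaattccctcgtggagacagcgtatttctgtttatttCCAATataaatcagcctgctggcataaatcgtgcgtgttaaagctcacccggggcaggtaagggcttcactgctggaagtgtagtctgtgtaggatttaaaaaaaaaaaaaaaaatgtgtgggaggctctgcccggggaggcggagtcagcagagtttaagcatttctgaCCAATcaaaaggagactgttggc
The Mthfd2 window held 3 such matches, which begin at positions -96, -47 and -22 (the base before the start being position -1). The Phgdh window held 2, and the Mthfd2l window held 0. CCAAT was found in windows of 6 members and in 33.8% of all 32851 promoter windows of the same length. The 6 were Phgdh, Psat1, Psph, Mthfd2, Shmt1 and Mthfd1. Of these, Psph, Shmt1 and Mthfd1 were not called between genotypes in the main fit. Shmt2, which was called at 22 °C, held none. This motif was chosen after the letters had been seen. The letters TGATGNAA, a form of the element bound by ATF4 together with C/EBP proteins, were searched on both strands. They were in 0 of the 10 member windows and in 3.45% of all windows. The 10 windows belong to 9 members, since Psat1 had 2. Of 2 genes of the ATF4 arm described below, the window of Trib3 held 0 and that of Asns held 1. A match is a description of the letters only.

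FPKM, the deposited unit, counts fragments relative to gene length and library depth, so levels of different genes can be set side by side. All FPKM levels below were scaled between libraries on nuclear genes. Depth, recovered from the steps between low values, was 15.9 to 21.3 M fragments per library. Lrpprc, the targeted gene, was at 25.3 to 57.3 scaled FPKM in 22 °C controls against 8.84 to 11.2 in knockouts, and at 30.3 to 32.8 in 30 °C controls against 4.97 to 8.56 in knockouts. Among 13079 genes tested, 0.91% were called higher and 1.06% lower in knockouts at 22 °C, and 8.82% higher and 5.29% lower at 30 °C, at an adjusted p under 0.05 (limma, Benjamini-Hochberg over all genes). The split depended on the scaling: 119 higher and 139 lower at 22 °C became 3167 and 81 with FPKM as deposited, 385 and 75 with equal totals over nuclear genes, and 97 and 91 with quantile normalization. At 30 °C, 1153 and 692 became 4280 and 291, 2229 and 409, and 874 and 908. FPKM as deposited moved the median log2 fold change over all genes by 0.238 at 22 °C and by 0.243 at 30 °C.

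Of the 10 members, 3 were called higher and 0 lower in knockouts at 22 °C, where 0.91% of all genes were called higher. At 30 °C 3 were called higher and 0 lower, where 8.82% of all genes were called higher. The members were chosen with earlier results of these data known, so comparisons of them with all genes are descriptions and not tests. The median log2 fold change over the 10 members was 0.45 at 22 °C and 0.30 at 30 °C, beside 0.0021 and 0.064 over all genes tested. Knockouts lay wholly above controls for 4 of the 10 members at 22 °C (Mthfd2, Phgdh, Shmt2 and Aldh1l2), as did 4.85% of all genes, and for 4 at 30 °C (Mthfd2, Phgdh, Psat1 and Aldh1l2), as did 22.1% of all genes. Fold changes are on the scale of log2(scaled FPKM + 1), which understates changes of weakly expressed genes. All 10 members passed the filter of at least 1 FPKM in at least 3 libraries, but Aldh1l2 and Mthfd1l did so only through 3 knockouts each, with no control at 1 FPKM.

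**Figure D1:**
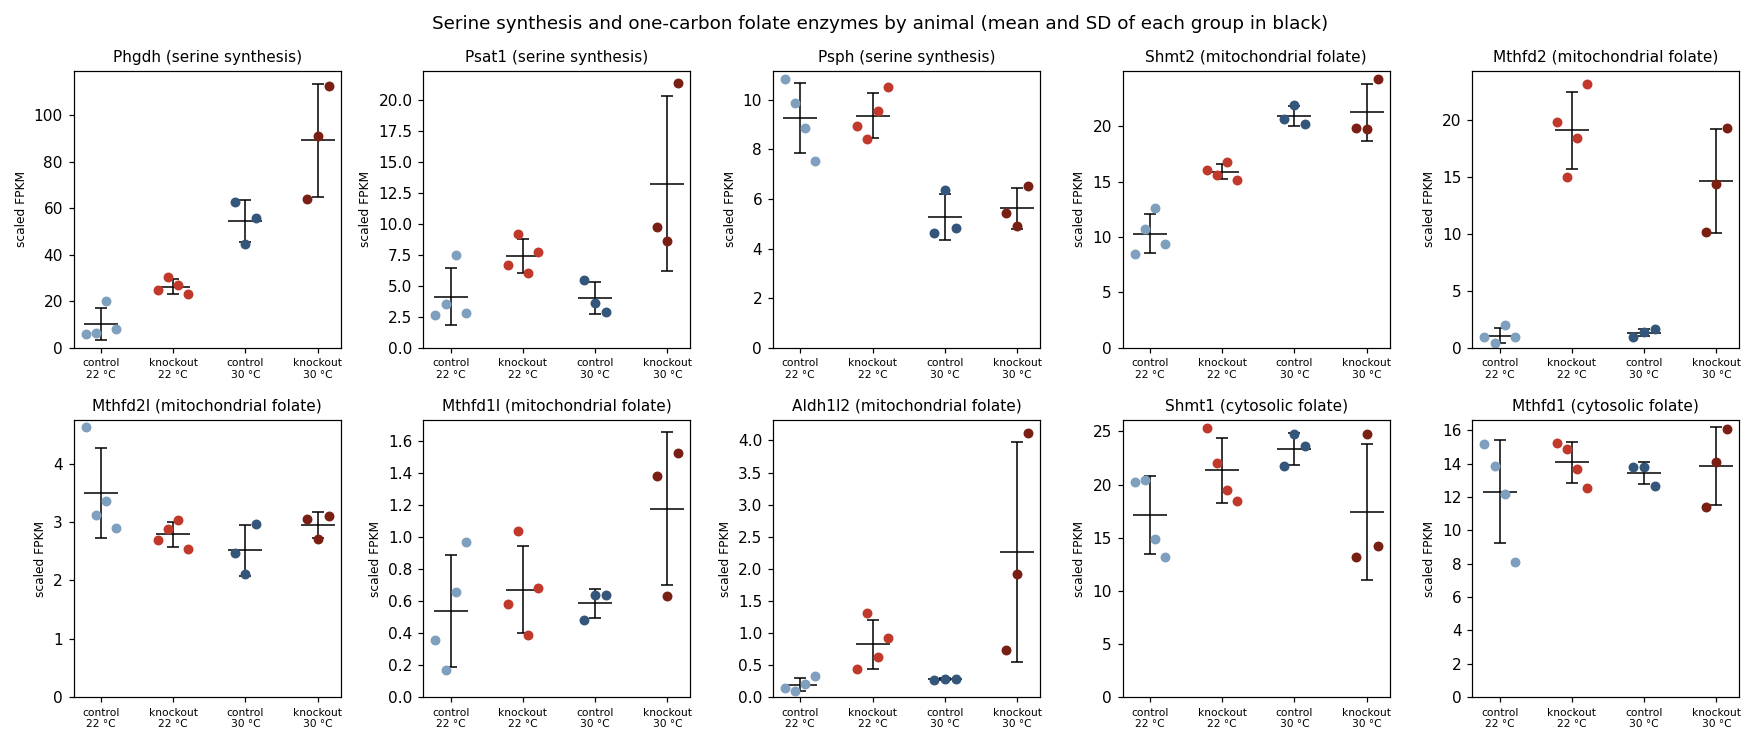
Scaled FPKM of the 10 members in each animal (points), with the mean and SD of each group in black; each vertical axis starts at 0 and has its own range. Mthfd2 was at most 1.96 in every control and at least 10.2 in every knockout, while Mthfd2l stayed between 2.1 and 4.62 in all 14 animals.

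Phgdh, the enzyme of the committed step of serine synthesis, differed among all 4 groups in mean level. In 22 °C controls it was at 6.08, 6.43, 20.2 and 8.03 scaled FPKM, and in 22 °C knockouts at 24.7, 30.3, 26.9 and 22.9. In 30 °C controls it was at 62.6, 44.7 and 55.7, and in 30 °C knockouts at 64.0, 91.2 and 113. Knockouts lay above controls at both temperatures without overlap, narrowly at 30 °C and, because of control replicate 3, narrowly at 22 °C. The knockout mean was 2.57 times the control mean at 22 °C (a log2 effect of 1.43 with SE 0.29 and a limma adjusted p = 0.0266), and 1.64 times at 30 °C (0.68 with SE 0.34 and a limma adjusted p = 0.205). The call at 22 °C was lost without control replicate 1, 2 or 4 or knockout replicate 1 or 2, with adjusted p-values of 0.067 to 0.091 and log2 fold changes of 1.27 to 1.46. It was also lost with no filter on low values (adjusted p 0.0633) and in a fit to the compared groups only (0.0874). At 30 °C Phgdh was called with FPKM as deposited (adjusted p 0.0448) and with sample weights (0.0361). Control replicate 3 was also the highest 22 °C control for Psat1, Shmt2 and Mthfd2, and without it the Phgdh log2 fold change was 1.79. Control replicates 3 and 4 are the only animals whose identifiers begin with R rather than E, and their summed skeletal muscle markers were 5533 and 3342 scaled FPKM, against 473 and 365 in control replicates 1 and 2. Without both of them the Phgdh log2 fold change was 1.90 (limma adjusted p = 0.000664), and the part of the muscle RNA was not tested.

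Psat1, the aminotransferase of the pathway, rose in knockouts at 30 °C. It was at 5.43, 3.61 and 2.93 scaled FPKM in 30 °C controls and at 9.76, 8.6 and 21.4 in 30 °C knockouts, so that every knockout was above every control and 1 knockout stood well above the others. Its change was 1.44 on the log2 scale (SE 0.35, limma adjusted p = 0.0155), and the call was lost without control replicate 2 (adjusted p 0.0574), control replicate 3 (0.0554) or knockout replicate 3 (0.0686), and in a fit to the compared groups only (0.0523). At 22 °C Psat1 was at 2.65, 3.5, 7.51 and 2.78 in controls and at 6.67, 9.2, 6.02 and 7.7 in knockouts. Those groups overlapped through control replicate 3, and the log2 fold change of 0.79 (95% interval 0.15 to 1.44) had an adjusted p of 0.209. With FPKM as deposited Psat1 was called at 22 °C (log2 fold change 1.04, adjusted p 0.0262). Psph, the phosphatase that completes the pathway, did not pass the test between genotypes: it was at 9.28 ± 1.42 (SD, n = 4) and 9.37 ± 0.898 (SD, n = 4) scaled FPKM in 22 °C controls and knockouts, and at 5.28 ± 0.941 (SD, n = 3) and 5.63 ± 0.822 (SD, n = 3) at 30 °C. The 95% intervals of its knockout effect were -0.26 to 0.29 at 22 °C and -0.23 to 0.40 at 30 °C on the log2 scale.

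Mthfd2, the mitochondrial dehydrogenase and cyclohydrolase, was weakly expressed in controls and rose in knockouts at both temperatures. It was at 0.91, 0.415, 1.96 and 0.945 scaled FPKM in 22 °C controls and at 0.989, 1.39 and 1.63 in 30 °C controls, which corresponds to about 23 to 124 reads a library. In 22 °C knockouts it was at 19.8, 14.97, 18.4 and 23.2, and in 30 °C knockouts at 10.2, 14.4 and 19.3, or about 845 to 1581 reads. The lowest knockout of the series was thus far above the highest control at both temperatures. On the log2 scale the knockout effect was 3.32 at 22 °C (SE 0.22, limma adjusted p = 4.75e-06) and 2.71 at 30 °C (SE 0.26, limma adjusted p = 9.84e-05), and both calls held in every alternative and with each animal left out. In tissue RNA, more cells of a type and more RNA per cell cannot be told apart.

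Mthfd2l, which has the same enzymatic role, was above Mthfd2 in every control and below it in every knockout. It was at 4.62, 3.13, 3.36 and 2.89 scaled FPKM in 22 °C controls and at 2.68, 2.88, 3.03 and 2.54 in 22 °C knockouts. At 30 °C it was at 2.47, 2.1 and 2.96 in controls and at 3.05, 2.7 and 3.1 in knockouts. Controls and knockouts overlapped at both temperatures. The knockout effect had 95% intervals of -0.50 to 0.03 at 22 °C (adjusted p 0.375) and -0.13 to 0.48 at 30 °C (adjusted p 0.458). With FPKM as deposited Mthfd2l was called at 30 °C (log2 fold change 0.40, adjusted p 0.0321). Within a library, the ratio of Mthfd2 to Mthfd2l FPKM was 0.133 to 0.583 in 22 °C controls and 0.401 to 0.664 in 30 °C controls, against 5.2 to 9.13 and 3.34 to 6.22 in the knockouts. This ratio was added after its values were seen and is given with no test.

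Shmt2, the mitochondrial serine hydroxymethyltransferase, rose in knockouts at 22 °C. It was at 8.47, 10.7, 12.6 and 9.4 scaled FPKM in 22 °C controls and at 16.1, 15.5, 16.8 and 15.2 in 22 °C knockouts, with no overlap (a log2 effect of 0.59 with SE 0.11 and a limma adjusted p = 0.0173). Without control replicate 1, knockout replicate 1 or knockout replicate 2 the adjusted p was 0.0506, 0.0546 and 0.0603, just past the threshold, with log2 fold changes of 0.51, 0.59 and 0.60, and in a fit to the compared groups only it was 0.0822. At 30 °C the controls were at 20.7, 21.9 and 20.2 and the knockouts at 19.8, 19.8 and 24.2. Those groups overlapped, and the log2 fold change was 0.02 (95% interval -0.26 to 0.29, adjusted p 0.951).

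Aldh1l2, the mitochondrial 10-formyltetrahydrofolate dehydrogenase that releases the carbon as carbon dioxide, was the weakest member in controls. It was at 0.138, 0.0923, 0.202 and 0.327 scaled FPKM in 22 °C controls and at 0.437, 1.31, 0.622 and 0.916 in 22 °C knockouts, or about 11 to 40 and 67 to 210 reads. At 30 °C it was at 0.268, 0.288 and 0.286 in controls and at 0.74, 1.92 and 4.12 in knockouts. Every knockout was above every control of its temperature, and the 30 °C knockouts spread more than 5-fold among themselves. The knockout mean was 4.33 times the control mean at 22 °C and 8.05 times at 30 °C. Aldh1l2 entered the test only through 3 knockouts, with 0 controls at 1 FPKM. The effect passed at 30 °C (a log2 effect of 1.21 with SE 0.29 and a limma adjusted p = 0.0161). It did not pass at 22 °C (0.59, SE 0.25, limma adjusted p = 0.271). With a pseudocount of 0.1 the 22 °C value was 1.64 and with limma voom on recovered reads it was 2.14, still without passing. The 30 °C call was lost without control replicate 2 (adjusted p 0.0525) or knockout replicate 3 (0.0534), and in a fit to the compared groups only (0.0826).

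Mthfd1l, the mitochondrial formyltetrahydrofolate synthetase that yields formate, was also weakly expressed. It was at 0.168 to 0.969 scaled FPKM in 22 °C controls, 0.387 to 1.04 in 22 °C knockouts, 0.484 to 0.64 in 30 °C controls and 0.632 to 1.52 in 30 °C knockouts. Its groups overlapped at both temperatures, and the log2 fold changes were 0.14 (adjusted p 0.771) and 0.43 (adjusted p 0.209). With sample weights Mthfd1l was called at 30 °C (log2 fold change 0.55, adjusted p 0.0387). About 12 to 146 reads a library lie behind these values.

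The cytosolic enzymes were among the 5 members with the highest mean in every group. Shmt1, the cytosolic hydroxymethyltransferase, was at 20.2, 20.4, 14.8 and 13.2 scaled FPKM in 22 °C controls and at 25.4, 22.0, 19.5 and 18.5 in 22 °C knockouts. At 30 °C it was at 21.8, 24.8 and 23.6 in controls and at 13.2, 24.8 and 14.3 in knockouts, where replicate 2 sat apart from the other 2 knockouts at the level of the controls. Its log2 fold change was 0.31 at 22 °C (adjusted p 0.459) and -0.46 at 30 °C (adjusted p 0.186). Without 30 °C knockout replicate 2 the latter was -0.73 with an adjusted p of 0.0187. With all animals and sample weights it was -0.59 (adjusted p 0.0143), so the call depended on this library and on the weighting. At 22 °C Shmt1 was called with FPKM as deposited (log2 fold change 0.60, adjusted p 0.038). Mthfd1, the cytosolic enzyme that joins the synthetase, cyclohydrolase and dehydrogenase steps in 1 protein, was at 12.3 ± 3.07 (SD, n = 4) and 14.1 ± 1.21 (SD, n = 4) scaled FPKM in 22 °C controls and knockouts, and at 13.4 ± 0.652 (SD, n = 3) and 13.9 ± 2.35 (SD, n = 3) at 30 °C. Its knockout effect had 95% intervals of -0.13 to 0.55 and -0.36 to 0.43 on the log2 scale. With FPKM as deposited Mthfd1 was called at 22 °C (log2 fold change 0.49, adjusted p 0.0334).

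**Figure D2:**
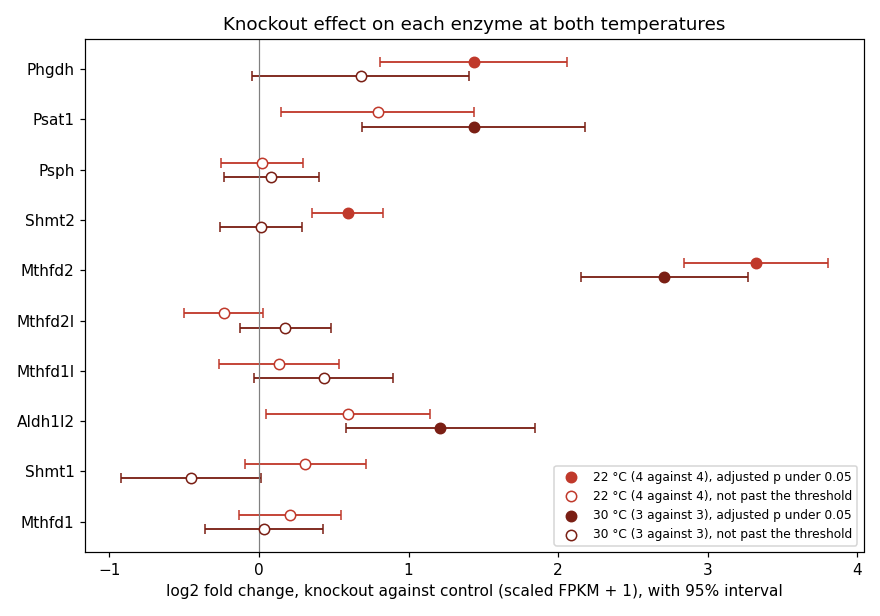
Log2 fold change of knockout against control with its 95% interval from limma for each member, at 22 °C (4 against 4) and 30 °C (3 against 3); filled points had an adjusted p under 0.05. Mthfd2 stood at 3.32 and 2.71, and the intervals of Psph, Mthfd2l, Mthfd1l, Shmt1 and Mthfd1 held 0 at both temperatures.

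The order of mean levels in 22 °C controls was Shmt1 (17.2 scaled FPKM), Mthfd1 (12.3), Shmt2 (10.3), Phgdh (10.2), Psph (9.28), Psat1 (4.11), Mthfd2l (3.50), Mthfd2 (1.06), Mthfd1l (0.537) and Aldh1l2 (0.190). Neighbours in that order overlapped in range except Psph and Psat1, and Mthfd2l and Mthfd2. In 22 °C knockouts Phgdh led with 26.2, followed by Shmt1 with 21.3, Mthfd2 with 19.1, Shmt2 with 15.9 and Mthfd1 with 14.1; the ranges of each neighbouring pair overlapped. In 30 °C controls Phgdh was highest with 54.4, and in 30 °C knockouts it was highest with 89.2.

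The mitochondrial and cytosolic isoenzymes were compared as the log2 ratio of their FPKM within a library, which needs no scaling between libraries. Over 5 pairs at 2 temperatures, 10 exact two-sided permutation tests were made, and the smallest p they can give is 0.0286 for 4 against 4 and 0.1 for 3 against 3. After Benjamini-Hochberg adjustment over the 10 tests the smallest value this design can give is 0.0571, so no ratio could pass at 0.05, and the adjusted values say nothing about which ratios differ. The differences below are in log2 ratios of FPKM + 0.1, and the linear ratios are of FPKM as deposited.

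The Mthfd2 to Mthfd1 ratio of FPKM was 0.0601, 0.03, 0.161 and 0.117 in 22 °C controls and 1.3, 1.01, 1.35 and 1.85 in 22 °C knockouts. At 30 °C it was 0.0717, 0.101 and 0.129 in controls and 0.894, 1.02 and 1.2 in knockouts. Mthfd2 was thus a small fraction of Mthfd1 in every control and near or above it in every knockout. The mean log2 ratio was 3.96 higher in knockouts at 22 °C (exact permutation p = 0.0286, adjusted 0.0952) and 3.30 higher at 30 °C (exact permutation p = 0.1, adjusted 0.2). The Aldh1l2 ratio to Aldh1l1, its cytosolic counterpart and no member of the list, was 0.00397 to 0.0183 in 22 °C controls and 0.0252 to 0.0838 in knockouts, and 0.0121 to 0.0188 and 0.0464 to 0.237 at 30 °C. Those groups did not overlap either, with differences of 2.05 and 2.51 in log2 ratio at the same p-values; with no pseudocount, which matters at such low levels, they were 2.66 and 2.89. Aldh1l1 itself was at 17.9 to 30.1 scaled FPKM in 22 °C controls and at 15.6 to 17.3 in knockouts (log2 fold change -0.48, adjusted p 0.109).

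The Mthfd2l to Mthfd1 ratio was 0.226 to 0.357 in 22 °C controls and 0.177 to 0.222 in 22 °C knockouts, with no overlap and a difference of -0.53 in mean log2 ratio (exact permutation p = 0.0286, adjusted 0.0952). At 30 °C the same ratio was 0.153 to 0.234 in controls and 0.192 to 0.267 in knockouts, a difference of 0.19 (exact permutation p = 0.4, adjusted 0.444). The Shmt2 to Shmt1 ratio was 0.419 to 0.848 and 0.633 to 0.861 at 22 °C, and 0.855 to 0.949 and 0.797 to 1.7 at 30 °C. It overlapped between genotypes at both temperatures, with log2 differences of 0.31 (exact permutation p = 0.286) and 0.50 (exact permutation p = 0.4). The Mthfd1l to Mthfd1 ratio was 0.121 or less in all 14 animals and also overlapped, with log2 differences of 0.11 (exact permutation p = 0.857) and 0.76 (exact permutation p = 0.3).

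**Figure D3:**
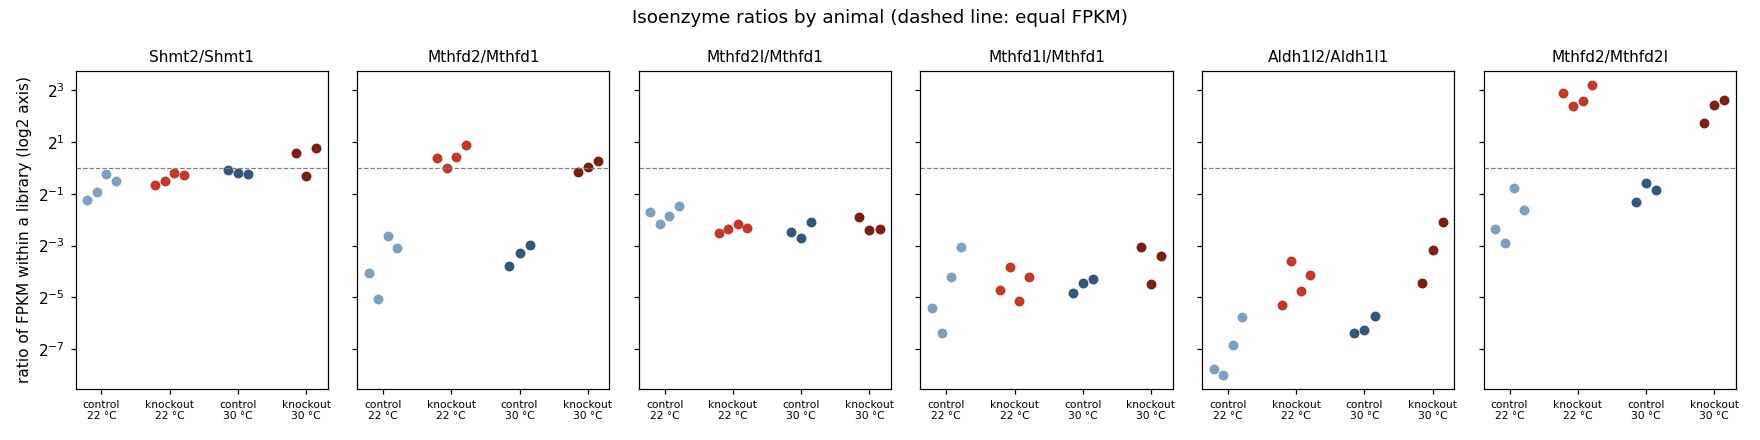
Ratio of FPKM of each mitochondrial enzyme to its cytosolic counterpart within a library, and of Mthfd2 to Mthfd2l, for each animal (points) on a log2 axis; the dashed line marks equal FPKM. The Mthfd2 to Mthfd1 ratio was 0.161 or less in every control and 0.894 or more in every knockout, while the Shmt2 to Shmt1 ratio overlapped between genotypes.

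The knockout effects at 22 °C and 30 °C were compared by an interaction contrast, which called 0% of the 13079 genes and 0 of the members. At an unadjusted p under 0.05 there were 1692 genes and 3 members in limma, and limma voom on recovered reads also called 0 genes. Those members were Shmt2, with an effect 0.58 higher at 22 °C than at 30 °C on the log2 scale (SE 0.17, limma adjusted p = 0.210), Shmt1 (0.77, adjusted p 0.288) and Mthfd2l (-0.41, adjusted p 0.371). Without 30 °C knockout replicate 2, Shmt1 passed this test (1.04, adjusted p 0.0494), and the count over all genes rose to 212. The difference for Mthfd2 was 0.61 with a 95% interval of -0.12 to 1.35.

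Markers of several cell types differed between the groups at 30 °C beside the calls of Psat1, Aldh1l2 and Mthfd2. Over all genes, 8.82% were called higher and 5.29% lower in that comparison. Of 8 macrophage markers 7 were called higher in 30 °C knockouts, and their summed level was 439 to 1348 scaled FPKM against 81.5 to 302 in controls. All 5 fibroblast markers were called higher (307 to 641 against 154 to 182), as were 2 of 5 proliferation markers tested (50.5 to 72.8 against 32.2 to 37.1), while 4 of 8 brown adipocyte markers were called lower (6028 to 8012 against 11008 to 13700). Fabp4 made up most of the brown adipocyte sums, with 30 °C means of 8347 in controls and 4681 in knockouts. The other 3 markers called lower were Ucp1 (806 and 316), Cidea (1430 and 853) and Adipoq (973 and 412). No macrophage or fibroblast marker was at 0 in any library. The knockout with the highest macrophage sum, replicate 1 at 1348, was at 10.2 scaled FPKM for Mthfd2 and 0.74 for Aldh1l2, the lowest of that group, and at 9.76 for Psat1, between the other 2. At 22 °C 0 of 8 macrophage, 0 of 5 fibroblast and 0 of 5 proliferation markers were called. The macrophage sum was 57.8 to 161 in knockouts against 38.6 to 53.4 in controls. The brown adipocyte sum was 11893 to 15449 against 15393 to 20630, with 1 marker called higher and 1 lower. Most of that sum was again Fabp4, with means of 12260 in controls and 8410 in knockouts. Ucp1 was at 2114 and 2067, Cidea at 2027 and 1798, Adipoq at 762 and 445, and Plin1 at 650 and 852. Of 6 skeletal muscle markers tested 0 were called at either temperature, with sums of 33.8 to 11665 scaled FPKM over the 14 animals and Tnnc2 at 0.239 or less in each. Summed liver markers were at 158 in 30 °C knockout replicate 1 and lower in every other library. The part of these cells in the members' values was not tested.

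Between temperatures, Phgdh, Shmt2 and Psph were called in both genotypes. In controls 4 of the 10 members were called, as were 38.8% of all genes, and in knockouts 4 of the 10, as were 51.2% of all genes, so the members were not called more often than genes at large in knockouts and at about the same rate in controls. These comparisons use the same animals as the knockout comparisons. The shares of all genes depended little on the scaling, but the split by direction changed with it in both genotypes. In knockouts 2855 genes higher and 3836 lower at 22 °C became 4168 and 2932 with quantile normalization. In controls 2384 higher and 2687 lower became 2707 and 2305 with quantile normalization, and 1738 and 3200 with FPKM as deposited. Xist was at 0 to 0.0141 FPKM in all 22 °C animals and at 9.01 to 18.4 in all 30 °C animals, and the Y-linked gene Ddx3y was at 14.5 to 23.1 and at 0 to 0.0244. No sex is stated for the animals, and temperature and this sex-linked difference cannot be told apart, in these comparisons or in the interaction.

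Phgdh was higher in the 30 °C animals of both genotypes. Its mean in 30 °C controls was 5.33 times that in 22 °C controls (log2 difference of 22 °C minus 30 °C -2.45, limma adjusted p = 0.000304), and in knockouts the ratio was 3.40 (log2 difference -1.70, limma adjusted p = 0.000852). Every 30 °C animal was above every 22 °C animal, at 44.7 to 113 against 6.08 to 30.3 scaled FPKM. Shmt2 followed the same order of groups, with 30 °C means 2.03 times the 22 °C mean in controls (limma adjusted p = 0.000254) and 1.34 times in knockouts (limma adjusted p = 0.0147); the second call was lost without 30 °C knockout replicate 3 (adjusted p 0.0814) and with quantile normalization. Over the 14 animals the log2 values of Phgdh and Shmt2 had the highest Pearson r of any member pair, 0.955, a description that the separation of the groups shapes. Psph went the other way, with 30 °C means 0.569 and 0.601 times the 22 °C means (log2 values higher by 0.71 and 0.65 at 22 °C, limma adjusted p = 0.00222 and 0.00194).

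**Figure D4:**
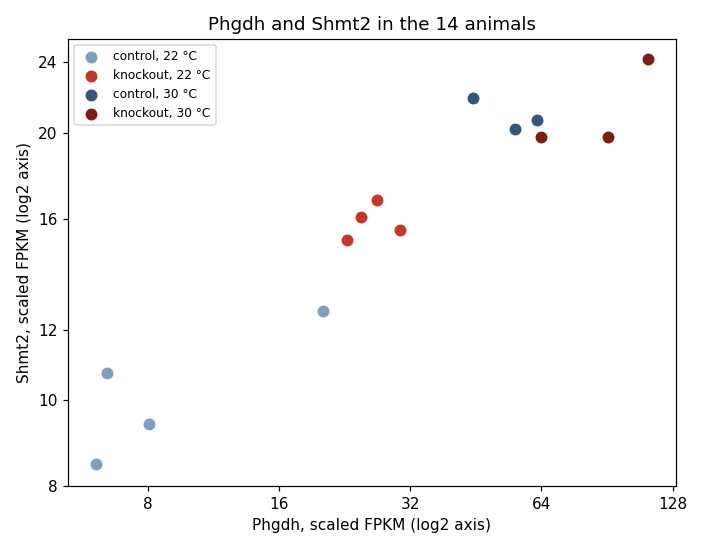
Scaled FPKM of Shmt2 against Phgdh in the 14 animals, both on log2 axes, coloured by group. The 22 °C controls lie lowest on both axes, the 22 °C knockouts between, with Shmt2 at 15.2 to 16.8, and the 30 °C animals highest on both.

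Mthfd2l was called higher at 22 °C in controls (log2 difference 0.35, limma adjusted p = 0.0498), with overlapping groups, and this call was lost without 22 °C control replicate 1, 2 or 3 or 30 °C control replicate 1 or 2 (adjusted p 0.0598 to 0.194). It held in 6 of 11 other alternatives and was lost with no filter (0.0915), FPKM as deposited (0.104), equal nuclear totals (0.0646), the compared groups only (0.127) and robust eBayes (0.0511). Aldh1l2 was called lower at 22 °C in knockouts (-0.73, limma adjusted p = 0.0407), again with overlap. It kept that call without 22 °C knockout replicate 2 or 30 °C knockout replicate 1 and lost it without any of the other 5 knockouts, to an adjusted p of 0.243 without 30 °C knockout replicate 3. It held in 5 of 10 other alternatives and was lost with a pseudocount of 0.1 (0.0689), no filter (0.0663), quantile normalization (0.143), the compared groups only (0.0972) and limma voom (0.0629). Mthfd2 did not pass between temperatures, with log2 differences of -0.23 in controls (95% interval -0.75 to 0.30) and 0.39 in knockouts (95% interval -0.13 to 0.91).

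The wider pathway was called about as often as genes at large. Of 51 genes in 6 lists of folate handling, glycine cleavage, serine and glycine transport, the methionine cycle, purine synthesis and serine use, 42 were tested. At 22 °C 0 were called higher and 1 lower, Slc25a38, the mitochondrial glycine carrier (log2 fold change -0.45, limma adjusted p = 0.0286), with a median of -0.029 over the 42; of all genes 1.97% were called in either direction. At 30 °C 3 were higher and 2 lower, with a median of 0.051, beside 14.1% of all genes. Folr2, a folate receptor known from macrophages, rose by 1.21 on the log2 scale (limma adjusted p = 0.0101), from 4.36 ± 0.811 (SD, n = 3) to 12.1 ± 5.52 (SD, n = 3) scaled FPKM, beside the macrophage markers given above. Slc38a2, an amino acid transporter, rose by 0.82 (limma adjusted p = 0.00969). Gcsh, the carrier protein of glycine cleavage, fell by 0.74 (limma adjusted p = 0.00669), and Ptdss2, a phosphatidylserine synthase, fell by 0.58 (limma adjusted p = 0.0193). None of the 7 purine synthesis genes was called in either knockout comparison.

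Of 7 genes of the ATF4 arm of the stress response, 4 were called higher at 22 °C, as were 0.91% of all genes. Their log2 fold changes were 3.97 for Trib3, 2.17 for Ddit3, 1.998 for Atf5 and 1.37 for Atf4. At 30 °C 4 were called higher, as were 8.82% of all genes. These were Trib3 (3.46), Atf5 (2.02), Sesn2 (1.32) and Ddit3 (1.22). Sesn2 was not called at 22 °C (adjusted p 0.0746), nor Atf4 at 30 °C (0.095). Asns (0.131 at 22 °C and 0.400 at 30 °C) and Chac1 (0.223 and 0.778) were called at neither. By Pearson r of log2 values over the 14 animals, the genes most like Mthfd2 were Atf5 (0.967), Trib3 (0.925), Oser1 (0.924), Cbr3 (0.919) and N4bp2l1 (0.914). Among those most like Phgdh were Eml2 (0.972), Pcnx3 (0.968), Plekhg6 (0.963) and Fntb (0.958). Both sets of r describe a pattern over 4 groups of animals rather than 14 independent points. Mthfd2 and Phgdh had an r of 0.467 with each other.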

How the data were processed

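RNA of homogenized brown adipose tissue from 14 mice was sequenced on an Illumina instrument, per the labels' protocols. The authors deposited FPKM per Ensembl gene for each animal. The submitters' processing notes name the build mm9; aligner, counting tool, annotation and use of strand are not given in the sources used here. Symbols came from GENCODE M21 (34490 of 35275 identifiers matched). Depth came from the steps between low FPKM values, of which 92.7 to 94.2% per library were whole reads within 0.1 (genes with 1 transcript).

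Genes at 1 FPKM or more in at least 3 libraries were kept (13079). Libraries were scaled by the median ratio over 10021 nuclear genes, and log2(scaled FPKM + 1) was fitted with limma 3.58.1 (R 4.3.3; lmFit, eBayes with trend) with 1 mean per group over all 14 animals. Benjamini-Hochberg adjustment ran over all genes, and an adjusted p under 0.05 was called. Isoenzyme ratios used deposited FPKM with a pseudocount of 0.1 and exact permutation tests (Python 3.11.15, scipy 1.17.1). The fit was tested on simulated data. Alternatives covered the pseudocount, filter, scaling, samples in the fit, eBayes options, sample weights and left-out animals; limma voom on recovered reads was added after the data were seen.

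The members and gene lists were chosen with earlier results of these data known. All members are named. Of the pathway and ATF4 lists, genes called in a knockout comparison with groups that do not overlap are named, up to 5 a list. The uncalled genes of the ATF4 list are named as well. Cell type marker lists are given by counts and sums, with some single markers named beside a sum. For likeness, the 5 genes with the highest Pearson r were taken among those with a group mean of 5 FPKM or more; 2 genes that these rules name are not reported here. Reads are not unique molecules, so read numbers speak to counting error alone.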

Additional observations from a re-analysis of the deposited data

Results flagged for a closer look

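Phgdh in 22 °C controls had a sample far from the others: replicate 3 was at 20.2 scaled FPKM, and the other 3 controls were at 6.08 to 8.03. Its gap to the nearest sample exceeded Dixon's critical value of 0.829 of the group's range. This was 1 of 32 sets of 4 samples examined, and chance gives about 1 in 20. The sets share animals and genes, so they are not independent. Psat1 in the same controls came just short of the critical value, at 0.8264, with replicate 3 again the highest at 7.51 scaled FPKM.

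The knockout effect on the Mthfd2l to Mthfd1 log2 ratio differed in direction between temperatures. All 4 knockouts at 22 °C lay below the control mean and all 3 at 30 °C lay above it, and the effect at 22 °C minus that at 30 °C was -0.75 (FPKM with no pseudocount). This difference was not tested, and its cause was not tested.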

How the results depend on the processing

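Mthfd2 was called at both temperatures under all alternatives run. Members called at 22 °C numbered 3, with 6 for FPKM as deposited, 1 for a fit to the compared groups only, and 1 to 3 with 1 animal left out. At 30 °C they numbered 3, with 5 as deposited, 1 for the compared groups only, 6 with sample weights and 1 to 4 with 1 animal left out. The interaction called 0 members, and 0 to 1 with 1 animal left out. Members called between temperatures in knockouts numbered 4, with 2 after quantile normalization, 7 with sample weights and 2 to 5 with 1 animal left out.

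Over all genes, 258 were called at 22 °C. This became 130 with no filter, 3248 as deposited, 460 with equal nuclear totals, 83 with the compared groups only, 906 with sample weights and 69 to 272 with 1 animal left out. The 1845 calls at 30 °C became 4571 as deposited, 3650 with sample weights and 877 to 2240 with 1 animal left out. The interaction called 0, and 9 with no filter, 6 as deposited, 8 with quantile normalization, 10 with equal nuclear totals, 7 without the eBayes trend, 212 with sample weights and 0 to 212 with 1 animal left out. The 6691 calls between temperatures in knockouts became 4250 at a mean FPKM of at least 5. The median log2 fold change of knockout against control was 0.24 at 22 °C and 0.307 at 30 °C as deposited. With equal nuclear totals it was 0.115 and 0.189. The cause of the differences between settings was not tested.

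Changes of sign were limited to values that had not passed the test. With quantile normalization the knockout effect became -0.0087 for Psph at 22 °C, and -0.052 for Psph, -0.076 for Mthfd1 and -0.074 for Shmt2 at 30 °C; the Psph interaction became 0.043, the temperature differences of controls 0.022 for Psat1 and 0.023 for Mthfd1l, and that of knockouts 0.17 for Mthfd2l. With sample weights the values were -0.082 for Psph at 22 °C, and for Mthfd1 -0.047 in the interaction, 0.0091 between temperatures in controls and -0.038 in knockouts. Without the 2 controls with R identifiers (22 °C control replicates 3 and 4) they were -0.044 for Mthfd1 and -0.13 for Psph at 22 °C, and for Mthfd1 -0.076 in the interaction and 0.11 between temperatures in controls. As deposited, Mthfd1 between temperatures in knockouts was -0.065.

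With 1 animal left out, the knockout effects ranged from -0.067 to 0.091 for Psph at 22 °C, and at 30 °C from -0.075 to 0.16 for Mthfd1, -0.077 to 0.063 for Shmt2 and -0.013 to 0.20 for Psph. The Psph interaction ranged from -0.18 to 0.032. Between temperatures in controls the ranges were -0.25 to 0.026 for Mthfd1, -0.30 to 0.17 for Psat1 and -0.20 to 0.050 for Mthfd1l, and in knockouts -0.095 to 0.14 for Mthfd1. The log2 ratio of Mthfd1l to Mthfd1 at 22 °C was -0.25 with a pseudocount of 1 and -0.30 to 0.60 with 1 animal left out. No paired analysis was made, because controls and knockouts were different animals and the labels name no pairs. The labels give animal identifiers only, and the replicate numbers used here were assigned in the order of the samples. Read numbers of 11 to 40 (Aldh1l2) and 12 to 70 (Mthfd1l) in 22 °C controls limit the precision of their fold changes.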
